A study of Ichthyophis bannanicus with 29 samples.

Results

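The genes described here are 144 assembled genes of *Ichthyophis bannanicus*, a limbless burrowing amphibian of the caecilian order, that were abundant in every library of a survey of 10 tissues. They were selected on their measured level, at 100 TPM (transcript abundance scaled to an equal total in every library) or more in each of the 29 libraries, and are 144 of the 53113 genes in the table (0.271%). Libraries were made from blood, heart, kidney, liver, lung, ovary, skin, spleen, stomach and testis, with 2 from ovary (replicates 1 and 3) and 3 from each of the other tissues. The labels give no age, sex, treatment or animal for a library, so replicates of a tissue may come from the same animal and the spread between them may be technical. All animals were of this species, and no tissue served as a control, so each tissue was set against the mean of the other 9. TPM divides read numbers by transcript length and by the library's total, so a level is a share of the library's messenger RNA and keeps no sequencing depth.

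In vertebrates, genes at a high level in all tissues mostly serve tasks that every cell performs. They encode, among others, ribosomal proteins and elongation factors that make protein, actin and tubulin of the cytoskeleton, and ferritin, which stores iron. Messenger RNAs made from mitochondrial DNA carry short poly-A tails and can enter libraries of poly-A RNA such as these, and amphibian red blood cells keep a nucleus and make RNA. The table pairs no gene names with its assembly IDs, so none of these classes can be assigned to a member and no marker list could be read in any tissue. The tissue labels could not be checked against defining markers for the same reason. IDs are printed to identify a measurement, with no function attached to them.

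The limit of 100 TPM cut through a continuous range. The 3 members nearest to it had a lowest library of 100.3 TPM (lung replicate 3), 100.6 TPM (blood replicate 2) and 101 TPM (liver replicate 2). The 3 genes just outside it had a lowest library of 99.5 TPM (testis replicate 3), 99.0 TPM (blood replicate 3) and 98.4 TPM (testis replicate 3). Spleen replicate 1 decided more of the membership than any other library, since 48 further genes reached 100 TPM in all libraries but this, with a median of 50.3 TPM in it against 352 TPM for their means over the other libraries. No other library alone kept out more than 7 genes. Blood as a tissue kept out 39 genes that passed in every library of the other 9 tissues, and 15 of them were under the limit in all 3 blood libraries. Kidney kept out 0 genes, and heart, liver, ovary and skin kept out 1 each.

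Few as they were, the members took a large part of the RNA. Their summed level was between 17.1% of TPM (spleen replicate 3) and 47.7% (blood replicate 2), with a median of 26.8% over the 29 libraries. In each library 663 to 1570 genes were at 100 TPM or more, and the members were 9.17% to 21.7% of these genes but held 23.3% to 64.9% of their TPM. The rule itself favours this, as it asks for 100 TPM in every library and not in that library alone. Between 36 members (liver replicate 2) and 77 members (testis replicate 1) were among the 100 most abundant genes of a library. The TPM within the set was unevenly divided, and how unevenly depended on the tissue. In each blood library 2 members made up 50% of the set's TPM, whereas 20 or 21 members were needed in the skin libraries.

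By tissue mean, blood gave the largest share to the set and stomach the smallest. In the blood libraries the members took 34.0%, 47.7% and 45.2% of TPM, a mean of 42.3% ± 7.31 (SD, n = 3). Lung followed with 34.5%, 24.2% and 44.9%, and heart with 30.1%, 37.96% and 29.3%. The lung libraries lay far apart, and neither tissue was separated from blood, whose lowest library lay below the highest of each. In kidney the share was 27.9%, 32.5% and 30.6%, and in spleen it was 42.5%, 24.7% and 17.1%. Spleen replicate 1 stood apart from the other spleen libraries, whose mean was 20.9%, while the mean of all 3 was 28.1% ± 13.1 (SD, n = 3). Ovary gave 18.0% and 30.4%, liver 26.8%, 22.0% and 23.3%, and testis 27.2%, 22.1% and 18.4%. Skin was the most even, at 22.2%, 20.7% and 22.5% (mean 21.8% ± 0.960, SD, n = 3), and stomach had 19.97%, 18.9% and 22.9% (mean 20.6% ± 2.04, SD, n = 3). Every pair of neighbours in this order of tissue means had overlapping libraries. All 3 blood libraries were higher than any library of kidney, ovary, liver, testis, skin or stomach. No test was made of the shares, because the members were chosen on these values.

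**Figure D1:**
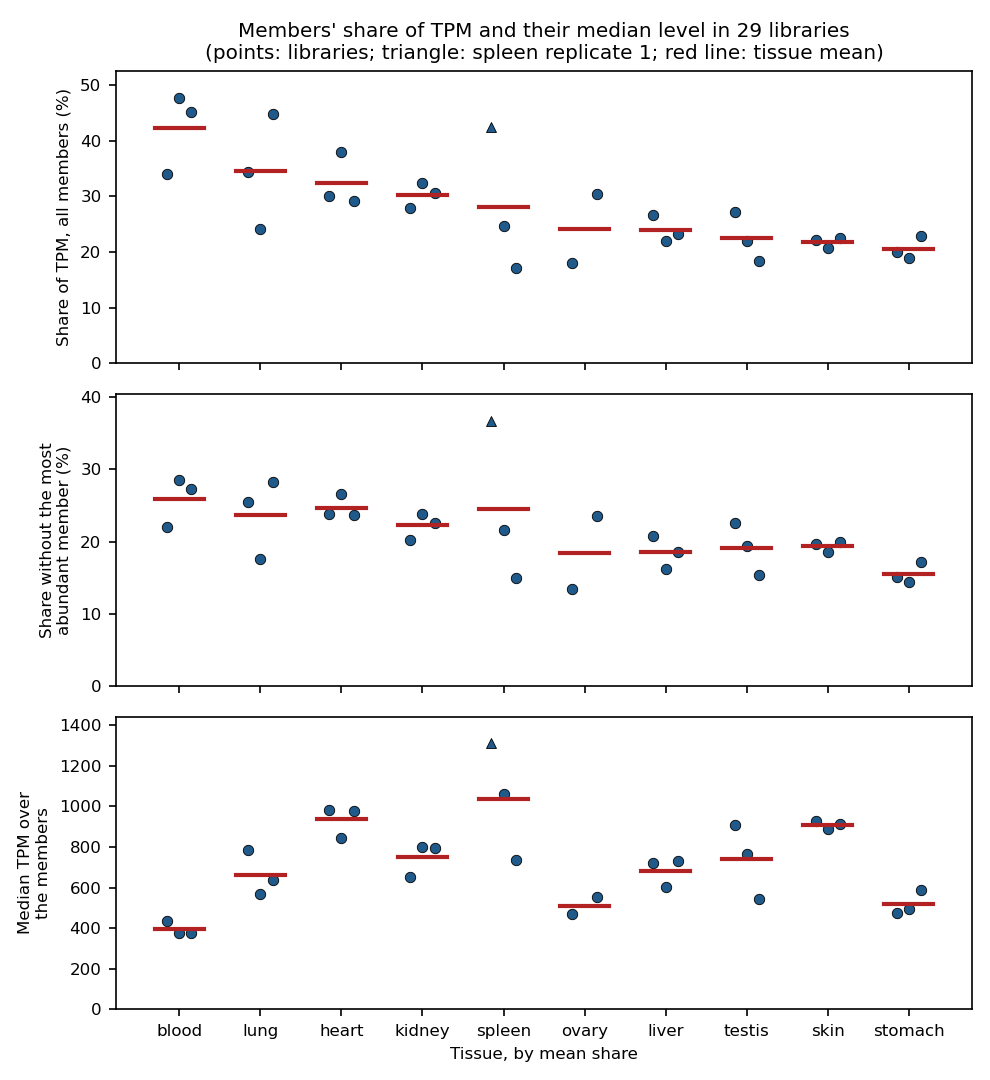
Each point is a library (triangle, spleen replicate 1), grouped by tissue in the order of the mean share, and red lines are tissue means. The panels show the percent of TPM held by all 144 members, the percent without the most abundant member, and the median TPM over the members; blood is highest in the top panel with a mean of 42.3% and lowest in the bottom panel with a mean of 395 TPM.

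The lead of blood in summed share narrowed without the most abundant member, TRINITY_DN132001_c0_g1. It held 16.4% ± 3.87 of TPM in blood and 2.48% ± 0.260 in skin (SD, n = 3 each), and between 2.08% and 19.2% over all libraries. Without it, blood averaged 25.9% ± 3.43, heart 24.7% ± 1.61, spleen 24.4% ± 11.1, lung 23.7% ± 5.52 and kidney 22.2% ± 1.84 (SD, n = 3 each), and their libraries overlapped. Skin then averaged 19.4% ± 0.702, and all 3 kidney libraries lay above all 3 skin libraries. Stomach was lowest at 15.6% ± 1.41 (SD, n = 3). Still counted in these shares was TRINITY_DN132001_c0_g2, the second most abundant member, whose ID has the same component number as the first. It averaged 106470 TPM in blood and 15898 TPM in skin, and the share without both was not computed. With the 10 most abundant members left out, the order of blood turned. How many of the 10 are needed for this was not examined. The remaining 134 members took 7.92% ± 0.357 of TPM in blood, the lowest of the 10 tissue means, against 16.2% ± 6.46 in spleen and 14.7% ± 0.631 in heart (SD, n = 3 each). All shares in this paragraph are of the full TPM, in which the members left out still count. Those 10 held 34.4% on average in blood and 8.07% in skin. The low share in blood is thus partly built in, and the order within the TPM that remains was not computed.

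The typical member did not follow the summed share. The median TPM over the 144 members was 436, 375 and 374 in the blood libraries, below every other library of the survey. It was 1311, 1064 and 738 TPM in the spleen libraries, 984, 845 and 980 TPM in heart, and 931, 890 and 912 TPM in skin. These 3 tissues had the highest means, and all heart and skin libraries lay above all kidney libraries, which ranged from 653 to 798 TPM. Ovary, with 470.0 and 551 TPM, and stomach, with 475, 493 and 588 TPM, came next above blood, although lung replicate 2 and testis replicate 3 were as low. Of the 144 members, 66 had their lowest tissue mean in blood, 28 in stomach and 21 in ovary. The highest tissue mean was in spleen for 59 members, in skin for 19 and in heart for 14. Spleen replicate 1 decided the count for spleen: it was the highest of all libraries for 63 members, and without it 18 members peaked in spleen, 48 in skin and 24 in heart. Without that library, 66 members were still lowest in blood. These counts include the shift of the whole set, and none was made over all genes. Taken relative to each library's median over the members, with all libraries kept, 36 were lowest in blood, 13 in stomach and 10 in ovary.

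Each tissue was compared with the unweighted mean of the other 9 in limma on log2(TPM + 1), fitted to the 50365 genes that reached 1 TPM in at least 2 libraries. Calls required an adjusted p (Benjamini-Hochberg, over all of these genes) under 0.05 together with a difference of at least 1 on the log2 scale, up or down. All 144 members entered the fit, as the rule ensures. The rule read each gene's lowest value and not a contrast between tissues. Its floor of 100 TPM bounds how far a member can fall, and the genes that form the background have no such floor. The background was not matched to the members in level, and on log2(TPM + 1) a gene near 1 TPM can hardly be called lower. The rule kept out 48 genes for spleen replicate 1 alone and 39 for blood alone, so the counts called in those tissues are not independent of it. The contrasts share libraries, since each tissue is part of the mean that the others are set against. At least 1 tissue was called for 110 members (76.4%), near the 75.6% of all genes tested, and 34 members were called in no tissue. Calls in 2 or more tissues were made for 50 members (34.7%), beside 35.7% of all genes, and in 3 or more for 17 (11.8%), beside 20.4%.

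TPM is a share, so 2 further scales were read beside it. In the first, each library was divided by its median-of-ratios factor, which takes the median gene detected in every library as fixed. Those factors were 0.370 for spleen replicate 1 and 0.663 to 1.80 for the other libraries. In the second, each library was divided so that the median member was equal in all, which shows how members moved against the rest of the set. That scale centres the members and not the other genes, so their shares called on it are not on equal terms. The median log2 difference of the members in blood was -0.78, beside -0.32 for all genes tested, and it was -0.41 after median-of-ratios scaling. In ovary it was -0.45, beside -0.25 for all genes, and -0.82 after that scaling. The members' median was 0.56 in spleen (all genes -0.41), 0.50 in skin (all genes -0.23) and 0.41 in heart (all genes 0.01). After median-of-ratios scaling it was 1.15 in spleen, 0.57 in skin and 0.10 in heart. The spleen value includes spleen replicate 1, whose factor of 0.370 raises its levels most, and no rescaled fit left that library out. So the typical member was lower in blood and ovary, and higher in spleen and skin, on both scales. Heart was also above 0 on both, but its rescaled 0.10 lay below the rescaled values of liver, stomach and lung. Lung, liver and testis kept their sign as well, from deposited values near 0. The sign turned with that scaling in kidney (0.13 as deposited and -0.38 rescaled) and in stomach (-0.29 and 0.22), beside medians over all genes, as deposited, of 0.32 in kidney and -0.43 in stomach. The medians as deposited were near 0 in liver (0.00), lung (0.06) and testis (-0.01), where all genes had -0.29 in liver, -0.25 in lung and 0.33 in testis. Rescaled, the members' medians were 0.26 in liver, 0.18 in lung and -0.74 in testis. That scaling moved the median of all genes by over 0.1 in kidney (-0.01 rescaled), testis (-0.12), heart (-0.15), spleen (-0.26) and stomach (-0.26). Against all genes on the same rescaled values the members were thus lower in kidney and testis and higher in heart, spleen and stomach.

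**Figure D2:**
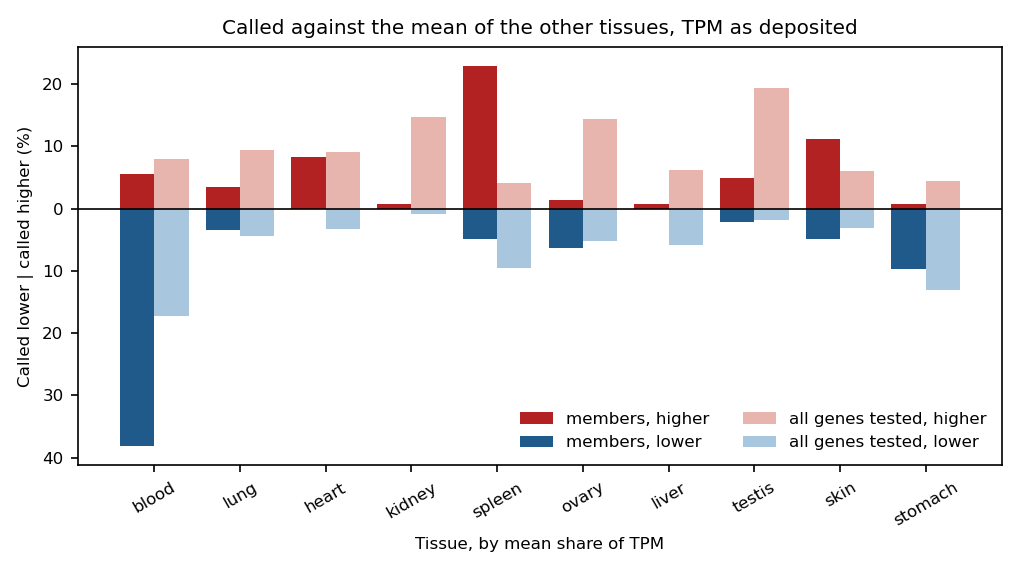
Bars give the percent of the 144 members (dark, left in each pair) and of all 50365 genes tested (pale, right) called higher (above 0) or lower (below 0) in a tissue against the mean of the other 9, on TPM as deposited. In blood 38.2% of members were called lower, beside 17.2% of all genes, and in spleen 22.9% were called higher, beside 4.08%. All genes tested were not matched to the members in level.

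On the deposited scale blood had the most members called lower, which no longer held after median-of-ratios scaling (ovary) or against the median member (spleen and skin). In limma 55 of the 144 members (38.2%) were lower in blood, beside 17.2% of all genes tested, and 8 (5.56%) were higher, beside 7.99%. In bulk samples such as these, fewer cells of a type and less RNA per cell cannot be told apart. All 3 blood libraries lay below the 26 others for 31 members, where the background is 6.59% of all genes tested, and above them for 5 members, where it is 2.69%. After median-of-ratios scaling 35 members were lower (14.3% of all genes) and 12 higher (12.9% of all genes). With the median member held equal, 24 (16.7%) were higher and 14 (9.72%) lower, beside 19.8% and 12% of all genes. Since that scale centres the members and not the other genes, these shares cannot be ranked against each other.

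Called in blood on the deposited scale and also against the median member were 8 members (5.56%) higher, beside 7.99% of all genes tested, and 14 (9.72%) lower, beside 11.9%. TRINITY_DN1281_c0_g1 was at 4160.4, 4693 and 6251 TPM in the blood libraries, against 109.95 TPM at the lowest, 1504 at the median and 3143 TPM at the highest in the 26 others. The lowest of those was spleen replicate 1, and no library overlapped with blood. Limma put the log2 difference at 1.99 with an SE of 0.59 (Benjamini-Hochberg adjusted p = 0.0113), and without blood replicate 3 it no longer passed, at 1.83. TRINITY_DN132001_c0_g2 was at 79565, 126277 and 113567 TPM in blood, against 10618 at the lowest, 25755 at the median and 64805 TPM at the highest elsewhere. The difference in log2 TPM was 1.99, with an SE of 0.28 and a limma adjusted p of 8.43e-06 (Benjamini-Hochberg), and 2.86 (SE 0.24) against the median member.

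Among members lower in blood, TRINITY_DN88846_c2_g1 was at 307, 187 and 197 TPM there, against 561, 1845 and 7053 TPM (lowest, median and highest) in the 26 other libraries. The highest was spleen replicate 1, and the blood libraries lay below all others. On the log2 scale it differed by -2.84 (SE 0.29), with an adjusted p of 8.78e-08 in limma (Benjamini-Hochberg). TRINITY_DN1348_c3_g1 was at 171, 149 and 118 TPM in blood, close to the limit that chose the members, against 550.3, 1034 and 1535 TPM elsewhere. Limma put the log2 difference at -2.72 with an SE of 0.18 (Benjamini-Hochberg adjusted p = 1.26e-10).

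On the deposited scale spleen had the most members called higher, but without spleen replicate 1 skin had more (17 members, beside 6.07% of all genes), and against the median member blood had more. In limma 33 of 144 members (22.9%) were higher in spleen, beside 4.08% of all genes tested, and 7 (4.86%) were lower, beside 9.57%. Without spleen replicate 1 the numbers in spleen were 9 higher (6.25%), beside 4.74% of all genes, and 4 lower (2.78%), beside 2.95%. Without spleen replicate 3 there were 56 higher (38.9%), beside 3.51% of all genes, and without spleen replicate 2 there were 14 lower (9.72%), beside 13.7%. After median-of-ratios scaling 81 members were higher (6.95% of all genes) and 0 lower (4.97% of all genes), while 6 lay lower at an unadjusted limma p under 0.05. No fit on that scale left out spleen replicate 1. Measured against the set's middle, 4 members (2.78%) were higher and 30 (20.8%) lower, beside 2.73% and 20.9% of all genes. Since that scale centres the members only, these shares are not on equal terms. Without spleen replicate 1 that split was 2 higher (3.54% of all genes) and 13 lower (6.43% of all genes). No member met the rule for naming in spleen, since none of those called on both scales had all spleen libraries clear of the others against the median member.

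Spleen replicate 1 differed from the other spleen libraries in more than its share. It had 18410 genes at 1 TPM or more, the lowest of the 29 libraries, against 30065 and 28438 in the other spleen libraries. It was the highest library for 63 members and the lowest for 21. The SD over members of their log2 deviation from their own mean was 1.45 in it, the largest of all libraries, against 0.635 and 0.611 in spleen replicates 2 and 3. What part this library's makeup had in the spleen counts was not tested.

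On the deposited scale skin and heart also held the typical member high, with fewer members called. In skin 16 of 144 members (11.1%) were called higher, beside 6.08% of all genes, and 7 (4.86%) lower, beside 3.04%. Rescaling by the median of ratios gave 16 higher (6.76% of all genes) and 1 lower (2.72% of all genes). Scaled to the median member, 2 were higher (4.58% of all genes) and 17 lower (7% of all genes). Without skin replicate 3 the higher members numbered 9 (5.46% of all genes), and without skin replicate 2 the lower ones numbered 2 (1.61% of all genes). TRINITY_DN2684_c3_g1 was at 1018, 1116 and 800.2 TPM in skin, against 169, 304 and 451 TPM (lowest, median and highest) in the 26 others, with no overlap. The difference in log2 TPM was 1.67, with an SE of 0.20 and a limma adjusted p of 1.18e-06 (Benjamini-Hochberg). TRINITY_DN9847_c2_g2 was at 909, 809 and 1049 TPM in skin, against 771, 1936 and 4979 TPM in the others, and overlapped with blood replicate 1. The limma log2 value of -1.05 (SE 0.18, Benjamini-Hochberg adjusted p = 0.000262) lay near the limit of 1 and was lost at -0.98 after median-of-ratios scaling, at -0.96 without skin replicate 2 and at -0.996 without ovary replicate 3.

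In heart 12 members (8.33%) were called higher, beside 9.06% of all genes, and 0 lower, beside 3.29%, with 3 lower at an unadjusted limma p under 0.05. The share called higher was near that of all genes, although 126 of the 144 members had a difference above 0. Median-of-ratios scaling gave 5 higher (7.15% of all genes) and 0 lower (4.24% of all genes), with 9 lower at an unadjusted limma p under 0.05. Relative to the median member, heart had 2 higher (5.5% of all genes) and 1 lower (5.16% of all genes). The heart libraries were also among those in which members kept closest to their own mean. The SD of the log2 deviation over members was 0.412 ± 0.023 in heart and 0.362 ± 0.020 in kidney, against 0.889 ± 0.069 in blood (SD, n = 3 each). No heart member met the rule for naming.

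Ovary and stomach held the typical member low on the deposited scale. In stomach, however, the members' median log2 difference of -0.29 lay above the -0.43 of all genes tested. In ovary 9 of 144 members (6.25%) were called lower, beside 5.12% of all genes, and 2 (1.39%) higher, beside 14.4%. The number lower was 17 without ovary replicate 1 (7.81% of all genes), 32 without ovary replicate 3 (1.93% of all genes) and 14 without testis replicate 3 (5.92% of all genes), and without ovary replicate 1 there were 7 higher (11.1% of all genes). With either ovary library left out, ovary is 1 library, which is assumed to vary like those of the other tissues. Median-of-ratios scaling gave 40 lower (9.26% of all genes) and 2 higher (11.7% of all genes). With the median member held equal the split was 10 higher (19.1% of all genes) and 1 lower (3.29% of all genes). TRINITY_DN3470_c0_g1 was at 562 and 1287 TPM in ovary, against 157, 280 and 603 TPM (lowest, median and highest) in the 27 other libraries. In TPM, ovary replicate 1 lay below the highest of those, spleen replicate 1, and also below the skin mean of 562.8 TPM. On the log2 scale it differed by 1.50 (SE 0.28), with an adjusted p of 0.000239 in limma (Benjamini-Hochberg), and with ovary replicate 1 as the only ovary library it was 0.90 and no longer called.

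In stomach 14 members (9.72%) were called lower, beside 13.1% of all genes, and 1 (0.694%) higher, beside 4.5%, which was 0 without stomach replicate 3 and 2 without ovary replicate 3, beside backgrounds of 3.88% to 4.68% of all genes over all single libraries left out. Rescaling by the median of ratios gave 4 lower (8.16% of all genes) and 7 higher (7.4% of all genes). Measured against the set's middle there were 7 lower (8.07% of all genes) and 6 higher (6.44% of all genes). TRINITY_DN2436_c1_g1 was at 589, 613 and 694 TPM in stomach, against 1043, 3049 and 7222 TPM (lowest, median and highest) in the 26 others, with no overlap. The highest of these was blood replicate 2. Limma put the log2 difference at -2.22 with an SE of 0.23 (Benjamini-Hochberg adjusted p = 2.81e-07). TRINITY_DN819_c1_g1 was at 350.4, 359 and 469 TPM in stomach, against 749, 1587 and 3948 TPM in the others, the highest being blood replicate 3. The difference in log2 TPM was -2.04, with an SE of 0.21 and a limma adjusted p of 1.3e-07 (Benjamini-Hochberg).

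On the deposited scale lung left the middle of the set in place and moved a few members far. The members' median log2 difference was 0.06, beside -0.25 for all genes, and 0.18 beside -0.19 after median-of-ratios scaling. Of 144 members 5 (3.47%) were called higher, beside 9.36% of all genes, and 5 lower, beside 4.33%. Median-of-ratios scaling gave 5 higher (10.9% of all genes) and 1 lower (3.86% of all genes), and against the median member 5 were higher (9.78% of all genes) and 4 lower (3.71% of all genes). Without lung replicate 2 the numbers were 9 higher (9.04% of all genes) and 2 lower (4.41% of all genes), and without lung replicate 3 there were 2 lower (2.12% of all genes). TRINITY_DN2_c0_g1 was at 4529, 6017 and 3074 TPM in lung, against 146, 417 and 848 TPM (lowest, median and highest) in the 26 others. The lung libraries lay far above all others, of which stomach replicate 2 was the highest. The limma log2 value of 3.53 (SE 0.21, Benjamini-Hochberg adjusted p = 5.92e-11) was the largest in size of any member in any tissue on the deposited scale, and 94.6% of its sum of squares in log2 TPM lay between tissues.

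Downward in lung, TRINITY_DN4723_c1_g2 was at 352, 302 and 216 TPM, against 359, 667 and 1325 TPM (lowest, median and highest) in the others. The lung libraries did not overlap with them, by a narrow gap to stomach replicate 1. On the log2 scale it differed by -1.21 (SE 0.21), with an adjusted p of 0.000345 in limma (Benjamini-Hochberg). TRINITY_DN77516_c0_g1 was at 331, 270.1 and 198 TPM in lung, against 319, 490.0 and 1906 TPM elsewhere, and overlapped with blood replicate 3. The limma log2 value of -1.10 (SE 0.24, Benjamini-Hochberg adjusted p = 0.00202) was no longer called after median-of-ratios scaling, at -0.98, or without lung replicate 3, at -0.90.

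On the deposited scale testis, kidney and liver moved few members. The share called higher was below background in each, as also in blood, heart, lung, ovary and stomach. In testis 7 members (4.86%) were called higher, beside 19.3% of all genes, and 3 (2.08%) lower, beside 1.9%. Leaving out testis replicate 2 left 1 lower (1.24% of all genes), as did leaving out testis replicate 3 (1.14% of all genes). After median-of-ratios scaling 2 were higher (9.54% of all genes) and 17 lower (4.37% of all genes). Scaled to the median member 7 were higher (16.8% of all genes) and 3 lower (2.08% of all genes). TRINITY_DN126752_c0_g1 was at 947, 1165 and 548 TPM in testis, against 166, 388 and 569 TPM (lowest, median and highest) in the 26 others, and testis replicate 3 overlapped with kidney replicate 3. Limma put the log2 difference at 1.28 with an SE of 0.20 (Benjamini-Hochberg adjusted p = 3.37e-05), but at 0.54 and not called after median-of-ratios scaling.

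In kidney 1 member (0.694%) was called higher, beside 14.7% of all genes, and 0 lower, beside 0.895%, with 4 lower at an unadjusted limma p under 0.05. The count of 1 was 4 without kidney replicate 1, 2 without lung replicate 1, ovary replicate 1, ovary replicate 3, spleen replicate 1 or testis replicate 1, and 0 without kidney replicate 2, kidney replicate 3 or spleen replicate 3. Over all single libraries left out, the background higher in kidney was 12.1% to 17.6% of all genes. Without kidney replicate 2 there was 1 lower (0.679% of all genes). Rescaling by the median of ratios gave 0 higher (9.98% of all genes) and 4 lower (1.81% of all genes), with 0 higher and 27 lower at an unadjusted limma p under 0.05. Relative to the median member 0 were higher (12.3% of all genes), with 13 at an unadjusted limma p under 0.05, and 1 was lower (0.933% of all genes). In liver 1 member (0.694%) was higher, beside 6.16% of all genes, and 0 lower, beside 5.77%, with 16 lower at an unadjusted limma p under 0.05. Rescaling by the median of ratios gave 4 higher (7.98% of all genes) and 0 lower (4.03% of all genes), with 2 lower at an unadjusted limma p under 0.05. The count of 1 higher on the deposited scale moved with 15 of the 29 libraries left out singly, to 0 without liver replicate 1 or 3, to 3 without skin replicate 3 or testis replicate 1, and to 2 without the others, beside backgrounds of 4.93% to 6.73% of all genes. Relative to the median member 2 were higher (6.16% of all genes) and 0 lower (5.48% of all genes), with 18 lower at an unadjusted limma p under 0.05. No kidney or liver member met the rule for naming.

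Relative to the median member, 75 of the 144 members (52.1%) were called in at least 1 tissue, beside 80.7% of all genes tested, and 69 in none. Calls in 2 or more tissues were made for 37 members (25.7%), beside 39.8% of all genes, and in 3 or more for 16 (11.1%), beside 22.4%. This scale centres the members themselves, so fewer calls among them are partly built in and do not show them steadier than other genes. On this scale blood was the tissue where the most members had their highest mean, 33, and also where the most had their lowest, 36. Spleen held the lowest mean of 31 members, skin of 22 and stomach of 13. Stomach held the highest mean of 23, skin of 18 and spleen of 17.

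**Figure D3:**
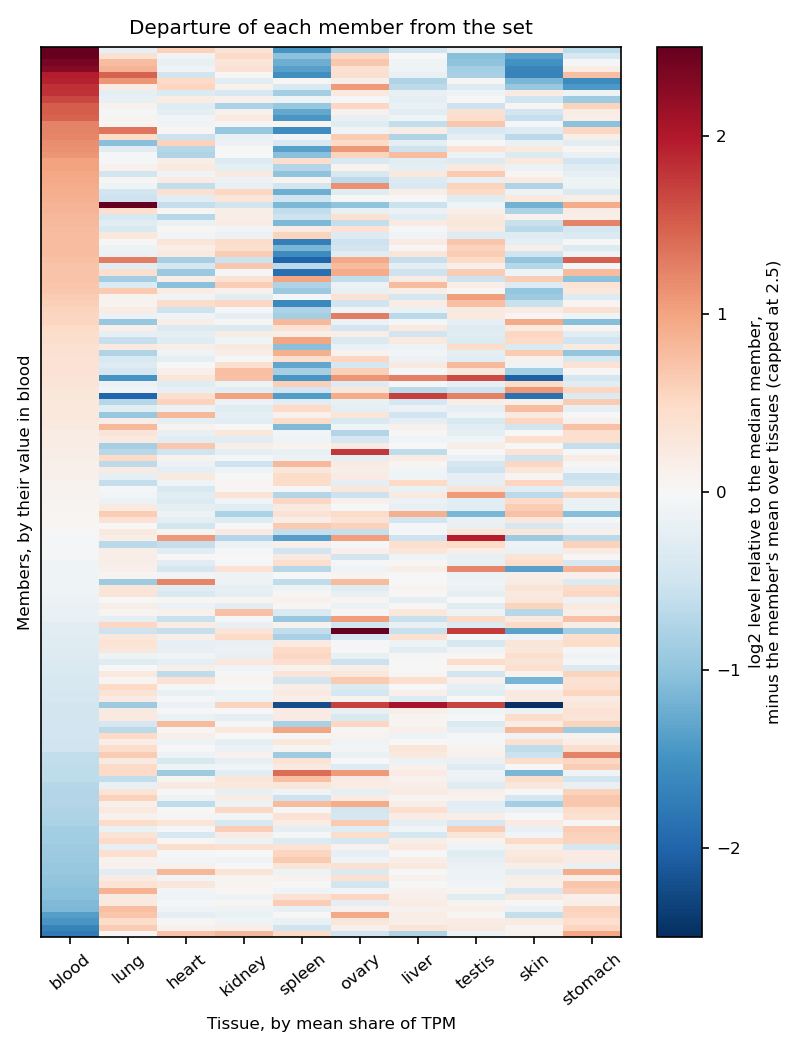
Each row is a member, sorted by its value in blood, and each column a tissue. Colour gives the log2 level relative to the median member, minus the member's own mean over tissues (red higher, blue lower, capped at 2.5); blood runs from the darkest red to deep blue, while heart, kidney and liver are pale for most members.

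The 3 most abundant members shared a pattern with high levels in blood and low ones in skin. TRINITY_DN132001_c0_g1 averaged 164058 ± 38723 TPM in blood, 107718 ± 52329 in lung, 80894 ± 4577 in kidney, 77785 ± 31889 in heart, 57530 ± 16869 in ovary (n = 2), 54907 ± 7252 in liver, 50146 ± 6315 in stomach, 36369 ± 19361 in spleen, 34696 ± 10366 in testis and 24757 ± 2598 in skin (SD, n = 3 unless given). The blood libraries, from 119864 to 192044 TPM, overlapped only with lung replicate 3, at 166498 TPM. It had a log2 difference of 1.64 in blood (SE 0.26, adjusted p = 2.89e-05 from limma with Benjamini-Hochberg adjustment) and of -1.36 in skin (SE 0.26, adjusted p = 0.000609 from limma with Benjamini-Hochberg adjustment). TRINITY_DN132001_c0_g2 averaged 106470 ± 24151 TPM in blood and 15898 ± 1930 TPM in skin (SD, n = 3 each). TRINITY_DN819_c0_g1 averaged 37929 ± 10165 TPM in blood and 5842 ± 766 TPM in skin (SD, n = 3 each). Across the 10 tissue means relative to the median member, the most abundant member had r = 0.99 with TRINITY_DN819_c0_g1 and r = 0.96 with TRINITY_DN132001_c0_g2. Of the other 143 members 3 had an r of 0.9 or more with it, 12 of 0.7 or more, and 7 of -0.7 or less. These r describe points that come from the same libraries and share their scaling, so no test was made of them.

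Assembly IDs with the same component number can be pieces or near-identical copies of a gene, between which reads may be split, so their separate levels are uncertain. The 144 members lay in such pairs in 3 components, which held 6 members, and 107 members (74.3%) were alone in their component, beside 76.7% of all genes. TRINITY_DN132001_c0_g1 and TRINITY_DN132001_c0_g2, the most abundant members, formed a pair. Their ratio, c0_g1 over c0_g2, was not constant over tissues. It was 2.88 ± 0.102 in stomach and 2.64 ± 0.155 in lung, but 1.54 ± 0.043 in blood, 1.56 ± 0.028 in skin and 1.51 ± 0.030 in spleen (SD, n = 3 each). The stomach and lung libraries, from 2.54 to 2.99, lay above those of blood, skin and spleen, from 1.48 to 1.59, and in testis the ratio ranged from 1.89 to 2.84.

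Members differed widely in how steady they were. The highest tissue mean was 1.91 to 24.5 times the lowest, with a median over members of 4.37, and was under 2 times for 1 member, under 4 times for 63 and under 8 times for 127. Between single libraries the fold was 2.80 to 81.8, with a median of 7.89. For the median member 77.5% of the sum of squares in log2 TPM lay between tissues, with a range of 35.3% to 94.6%. With few libraries per tissue, part of it lies there even without a tissue difference, and that part was not estimated for any member. Being abundant everywhere was thus not the same as being even in TPM, as only 1 member varied by under 2 times between tissues. These folds include the shift of the whole set, whose median TPM averaged 395 in blood and 1038 in spleen. A member that followed the set closely would therefore not count as even here. The folds of all genes were not computed. The spleen means in these folds include spleen replicate 1, the highest library for 63 members. How many members stay under 4 times without that library was not counted.

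The 2 members steadiest against the set were TRINITY_DN75176_c0_g1 and TRINITY_DN8242_c0_g2. TRINITY_DN75176_c0_g1 had an SD of 0.107 over its 10 tissue means of log2 level relative to the median member. Its TPM was still 204 ± 28.2 in blood and 589 ± 235 in spleen (SD, n = 3 each), so its TPM was low where the median member was low. Relative to the median member its tissue means lay between -1.01 in testis and -0.70 in skin, always below the middle of the set. TRINITY_DN8242_c0_g2, with an SD of 0.146, was at 392 ± 14.2 TPM in blood and 1229 ± 98.2 TPM in skin (SD, n = 3 each), and stayed between -0.08 in liver and 0.43 in skin relative to the median member.

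At the other extreme, TRINITY_DN8715_c0_g2 had the largest SD over tissue means, 1.60, followed by the lung member TRINITY_DN2_c0_g1 at 1.36. TRINITY_DN8715_c0_g2 was at 7047, 2523 and 4012 TPM in liver, 5391, 6419 and 1111 TPM in testis, and 528 and 11096 TPM in ovary. It was at 164, 145 and 472 TPM in skin and at 1307, 175 and 136 TPM in spleen. The liver libraries lay above all skin and spleen libraries, but libraries of the same tissue also differed widely, and ovary replicate 3 was the highest of all libraries while ovary replicate 1 lay among the lower ones. For this member 67.8% of the sum of squares in log2 TPM lay between tissues.

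**Figure D4:**
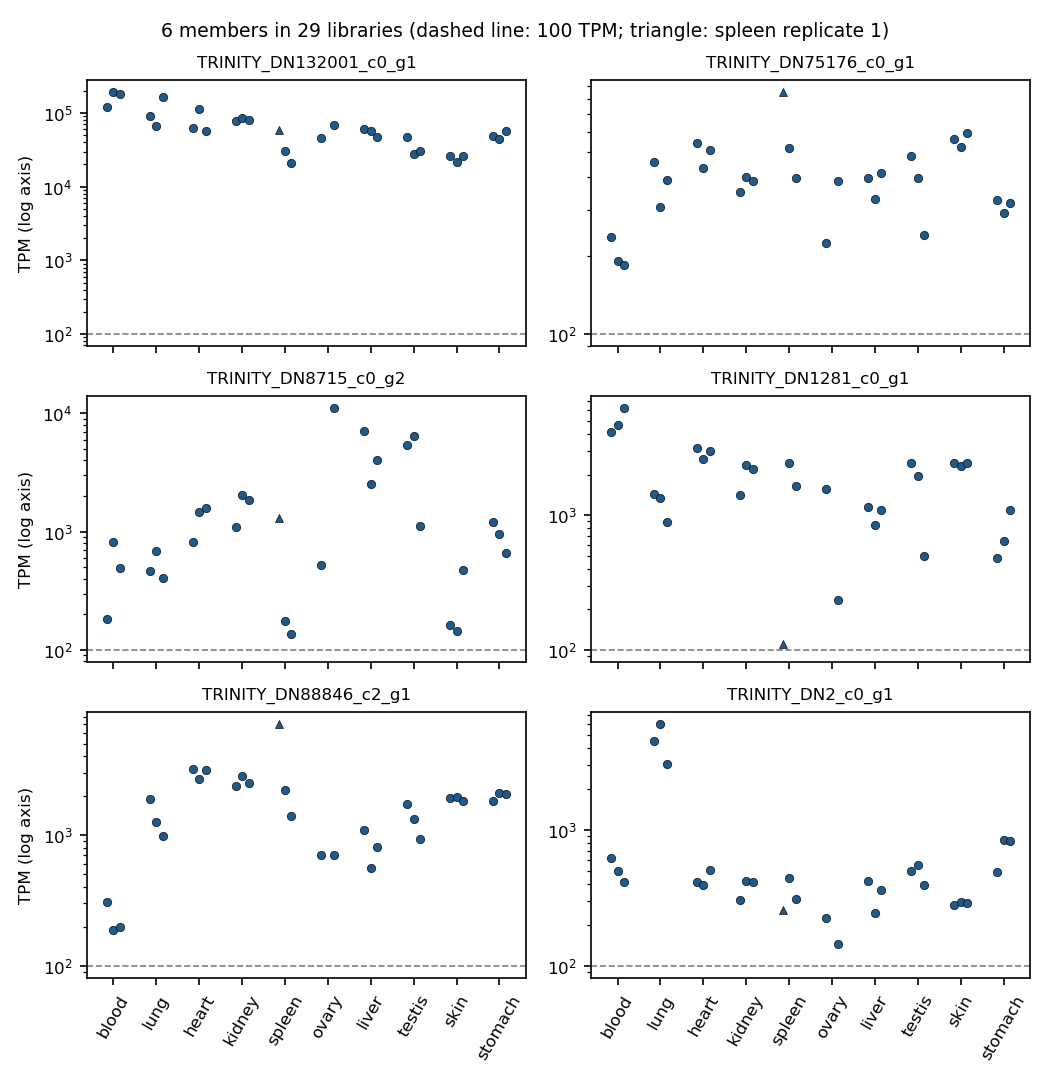
TPM on a log axis of 6 members in 29 libraries, grouped by tissue in the order of the mean share, with the 100 TPM limit dashed and spleen replicate 1 as a triangle. TRINITY_DN132001_c0_g1 is highest on average in blood and lowest in skin, TRINITY_DN75176_c0_g1 follows the set, TRINITY_DN8715_c0_g2 varies most, TRINITY_DN1281_c0_g1 and TRINITY_DN88846_c2_g1 set blood apart upward and downward, and TRINITY_DN2_c0_g1 stands out in lung at 3074 to 6017 TPM.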

How the data were processed

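Expression was deposited by the authors as TPM in a single table whose header names 29 libraries, each matched to a sample by name and each summing to 1000000. Poly-A RNA and a NEBNext library kit were used, per the labels' protocols. How reads were assembled and quantified, with which versions and filters, is not given here. Neither a count test nor a counting interval was used, since TPM keeps no depth. No 2 libraries had an equal value above 0 in any gene (0 genes in the closest pair), and each was counted once. Tissue contrasts were fitted with limma 3.58.1 in R 4.3.3 with an intensity trend, a mean per tissue and all 29 libraries, and checked on simulated data. Tables and plots were made with Python 3.11.15 (pandas 2.3.3, matplotlib 3.10.9, numpy 2.4.6). Filters on rescaled values read TPM as deposited. The members, tests and alternatives were chosen with earlier results of these data known. Named were the 3 members of highest mean, the 2 steadiest and the 2 most varied against the set, and per tissue at most 2 in each direction. These had to be called on the deposited scale and against the median member, without overlap on that scale, and were taken by size. Leaving out spleen replicate 1 against the median member was added after seeing the data. No list of gene names or cell type markers could be matched.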

Additional observations from a re-analysis of the deposited data

How the results depend on the processing

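The number of members was 320 at a limit of 50 TPM, 72 at 200 TPM and 225 when 28 of 29 libraries sufficed. At 50 TPM the share was 52.6% in blood, 39.2% in heart, 35.5% in kidney, 28.4% in liver, 26.4% in skin, 23.4% in stomach and 28.1% in testis. At 200 TPM it was 27.3% in heart, 26.0% in kidney, 19.995% in liver, 17.2% in skin, 17.7% in stomach and 17.6% in testis. Without the most abundant member it was 25.9% in blood, 24.7% in heart, 22.2% in kidney, 18.5% in liver, 23.7% in lung, 19.4% in skin and 15.6% in stomach. Leaving out each library in turn, from the rule too, gave 21.5% to 23.3% in skin. The range was wider in blood (39.7% to 49.1%), lung (29.4% to 39.7%), ovary (18.0% to 30.5%) and spleen (22.3% to 33.6%). It was 29.7% to 34.5% in heart, 29.3% to 32.2% in kidney and 22.7% to 25.5% in liver. Stomach had 19.45% to 22.1% and testis 20.2% to 25.5%.

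Median-of-ratios scaling changed the members called lower to 35 in blood, 4 in kidney, 1 in lung, 40 in ovary, 1 in skin, 0 in spleen, 4 in stomach and 17 in testis. It changed those called higher to 5 in heart, 0 in kidney, 4 in liver, 81 in spleen, 7 in stomach and 2 in testis. Scaling to the median member gave 24 higher in blood, 2 in heart, 0 in kidney, 2 in liver, 10 in ovary, 2 in skin, 4 in spleen and 6 in stomach, and 14 lower in blood, 1 in heart, 1 in kidney, 1 in ovary, 17 in skin, 30 in spleen and 7 in stomach. With 3 libraries left out at once (liver replicate 2, kidney replicate 1 and testis replicate 1), 4 were higher in kidney and 2 in liver. The share of all genes called in that fit is not given here. The cause of these shifts was not tested.

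With each library left out in turn, members called higher numbered 0 to 4 in kidney, 0 to 3 in liver, 4 to 9 in lung, 9 to 21 in skin, 9 to 56 in spleen and 0 to 2 in stomach. Those lower numbered 0 to 1 in kidney, 0 to 1 in liver, 2 to 7 in lung, 7 to 32 in ovary, 2 to 8 in skin, 4 to 14 in spleen and 1 to 4 in testis. Ovary is given no range here, since fits without an ovary library leave it as 1 library. In those fits the remaining ovary library is assumed to vary like those of other tissues. Over the same fits, all genes called higher were 12.1% to 17.6% in kidney, 4.93% to 6.73% in liver and 7.11% to 9.82% in lung. Skin had 4.90% to 6.37%, spleen 3.05% to 4.74% and stomach 3.88% to 4.68%. Called lower were 0.669% to 1.11% in kidney, 3.51% to 6.77% in liver and 2.12% to 6.31% in lung. Skin had 1.61% to 3.84% lower, spleen 2.95% to 13.7% and testis 1.14% to 2.67%. Against the median member and without spleen replicate 1, heart had 3 lower, and spleen 2 higher (3.54% of all genes) and 13 lower (6.43% of all genes). For heart, the share of all genes in that fit is not given here.

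Neither the replicate block, nor a pseudocount of 0.1, nor dropping the low-value filter moved any count of members by over 1.5 times. With the replicate block 8 members were higher and 55 lower in blood. Whether a replicate number marks an animal is not given by the labels. Deviations from the tissue mean had r of -0.18 to 0.24 (mean 0.016) over 126 same-numbered pairs. Over 252 pairs of other numbers the mean r was -0.0078. With 2 or 3 libraries per tissue these r cannot decide whether the numbers pair libraries. For the members named in a tissue, 447 alternative values kept direction and call and 8 kept only the direction. Among these alternatives, scaling to the median member was a condition for naming, so its agreement was fixed in advance. TPM gives no depth, so what depth adds to the error of these values is unknown.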
